A study of Homo sapiens with 20 samples.

Results

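Tristetraprolin (ZFP36), its relatives ZFP36L1 and ZFP36L2, the kinases MAPK14 (p38) and MAPKAPK2 (MK2), and the 14-3-3 genes YWHAB, YWHAE, YWHAG, YWHAQ and YWHAZ were examined at the mRNA level in HEK293 cells overexpressing ZFP36. Every probe set annotated to exactly 1 of these 10 genes was taken. This gave 25 probe sets for 9 of the 10 genes, out of 38070 probe sets that name 1 gene and 19353 genes in all. MAPK14 was not analysed here, because no probe set in the tables used names it alone. The series holds 20 Affymetrix U133 Plus 2.0 arrays in 4 groups of 5. All cells were HEK293 Flp-In T-REx, a human embryonic kidney line that carries a tetracycline-responsive repressor. One line held an inducible EGFP-ZFP36 fusion gene and was given either doxycycline at 1 µg/ml for 16 h (induced) or water (mock). Parental cells without the fusion gene were given the same doxycycline (parental doxycycline) or water (parental vehicle). The methods of the study state that GFP-positive cells were collected from induced flasks and non-fluorescent cells from mock flasks, after pooling flasks on each of 5 days. They also state that induced cultures were sparser, with more cells detached. Sorting, density and the fusion gene thus vary together between induced and mock arrays and cannot be told apart. Parental cells, per the methods, were diluted less at passage and grown for fewer days in fewer flasks before treatment. Line and culture thus vary together between the EGFP-ZFP36 and the parental arrays and cannot be told apart.

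ZFP36 proteins bind AU-rich elements in the 3′ UTR of mRNAs through a pair of CCCH zinc fingers and recruit deadenylases, so that the bound mRNA is degraded. The kinase p38 activates MK2, which phosphorylates ZFP36. Phosphorylated ZFP36 is then bound by 14-3-3 proteins, phosphoserine-binding adaptors that hold it away from the deadenylation machinery, and the phosphatase PP2A removes the phosphates again. The ZFP36 family, its kinases and the 14-3-3 proteins thus form a control circuit around mRNA decay, and arrays report only its mRNA layer, not phosphorylation or binding.

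The study's table of ZFP36 crosslinking sites was used here in shortened form, and all sites on 1 chromosome were left out as well. What remained holds 1 site in a gene of this circuit. It lies in the 3′ UTR of YWHAG, on the minus strand of hg19 at chr7:75956674-75956696. This site is shown because it is the only one of these genes in the rows kept. Capitals mark the TATT letters, the DNA form of the UAUU half-site to which 1 zinc finger of this protein family can bind.
YWHAG site: attactcctccattactcTATTg
The absence of other members, YWHAZ among them, from the rows kept carries no information. Sites of members on the chromosome left out, or in rows lost by shortening, were not looked at.

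Values are the deposited GCRMA levels on the log2 scale, where a difference of 1 is a change of 2-fold. The lowest value in the table is 2.19, and a level near it means no signal above background. A probe set was tested where the mean of any group exceeded 4.5, the cut-off of the study. Of the 25 probe sets, 20 passed it. The other 5, of which 3 belong to ZFP36L1 and 2 to ZFP36L2, had group means between 2.19 and 2.78 and gave no level. Levels of different probe sets are not compared with each other, since each has its own hybridization strength.

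The arrays were similar within a group, with correlations between 0.982 and 0.996 over the tested probe sets. Among markers of HEK293 cells, NEFL, INA and VIM had means above 4.5 in every group. PAX2 was under 4.5 outside the induced group, and NEFM read 3.87 in mock cells against 12.27 in parental vehicle cells. Of 10 measured markers of blood, endothelium, fibroblasts and liver, 8 had a mean of at most 2.44 in every group, whereas the collagen genes COL1A1 and COL3A1 exceeded 4.5 in all 4. The mean level of these 10 markers was 3.45 to 3.51 over the induced arrays and 2.91 to 3.02 over the mock arrays. COL1A1 read 6.84 in mock and 9.15 in induced cells and COL3A1 5.09 and 8.17, while the other 8 were near the floor. The mean level of the HEK293 markers was 8.71 to 8.84 over the mock arrays and 9.74 to 9.92 over the induced arrays. The part of these differences in the results below was not tested.

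After induction, the circuit's mRNAs moved in both directions. YWHAZ (14-3-3 zeta) fell 3.94-fold and YWHAG (14-3-3 gamma) fell 3.63-fold, while MAPKAPK2, which encodes MK2, rose 2.48-fold. YWHAQ (14-3-3 theta) passed on 1 of its 3 probe sets, with a 1.77-fold fall. YWHAE (14-3-3 epsilon) passed on 1 of its 2, with a 1.53-fold rise. The brightest probe sets of YWHAQ and YWHAE moved the same way, by 1.31-fold and 1.27-fold, and did not pass. None of the 3 ZFP36 family genes passed the Bonferroni threshold of 0.01 in limma. In bulk RNA, fewer cells of a kind and less RNA per cell cannot be told apart. Of the 20 tested probe sets, 7 fell and 2 rose, while among all 18639 tested probe sets 21.8% fell and 22.1% rose. The 7 include every YWHAZ probe set, so they do not stand for 7 genes. With 1 probe set per gene in the fit, 2 of 9 members fell and 1 rose. In that fit 2500 of all 10834 genes fell and 3123 rose. The median difference over the 20 was −0.36, beside 0.12 over all tested probe sets. One of the 20, the weaker probe set of MAPKAPK2, was tested only because of its induced level, and 214848_at of YWHAZ, among the 7 that fell, only because of its levels outside the induced group, so the count describes the circuit and supports nothing by itself.

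ZFP36 read 5.48, 5.78, 4.56, 5.63 and 5.67 in the induced arrays and 4.85, 5.67, 5.14, 5.92 and 5.21 in the mock arrays. The groups overlapped widely, and induced replicate 3 lay below every other array of the EGFP-ZFP36 line. The difference was 0.07 (SE 0.26, 95% confidence interval −0.50 to 0.63, exact permutation p = 0.833), and without induced replicate 3 it was 0.28. Parental arrays read 2.77, 4.31, 3.26, 3.56 and 3.34 with vehicle and 3.52, 4.12, 4.54, 3.03 and 3.61 with doxycycline. All 5 mock arrays lay above all 5 parental vehicle arrays, which were themselves under 4.5. With 4.5 taken as the limit of measurement, the mock mean was at least 1.81-fold higher, a bound that does not allow for spread (mean ± SD 5.36 ± 0.43, n = 5, adjusted p = 0.737 by limma with Bonferroni adjustment and 1.15e-04 with Benjamini-Hochberg adjustment). The probe set was tested only because of its levels in the EGFP-ZFP36 line, so these p-values support nothing by themselves. The sources used here do not say whether this probe set detects the fusion transcript, and its level is no check of the induction. Centred on the hybridization controls or on the poly-A controls, the difference between mock and parental vehicle cells passed (adjusted p = 0.00489 and 2.56e-07), with the same limit from the filter.

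ZFP36L1, a paralogue that acts on AU-rich mRNAs in development and in lymphocytes, read 9.64, 9.71, 9.69, 9.79 and 9.82 in induced arrays on its single measurable probe set (211962_s_at). The mock arrays read 10.02, 10.00, 10.34, 10.14 and 10.23, so that every induced array was below every mock array. The difference was −0.42 (SE 0.07, 95% confidence interval −0.58 to −0.26, limma adjusted p = 1 by Bonferroni and 2.32e-04 by Benjamini-Hochberg). Parental vehicle arrays spanned 9.91 to 10.52 and parental doxycycline arrays 9.75 to 10.47, both overlapping the mock range. The induced mean was the lowest, although the lowest parental doxycycline array (9.75) lay within the induced range. The other 3 groups did not differ beyond their spread.

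ZFP36L2, a paralogue needed for early embryonic and blood cell development, read 10.36, 10.00, 9.72, 10.02 and 9.87 in induced arrays on 201368_at. Mock arrays read 10.68, 10.54, 10.46, 10.67 and 10.45. Induced replicate 1 came closest to the mock arrays, and the groups did not overlap. The difference was −0.57 (SE 0.11, limma adjusted p = 1 by Bonferroni and 4.59e-04 by Benjamini-Hochberg). A further probe set, 201369_s_at, read 7.69 ± 0.03 in induced and 7.77 ± 0.04 in mock arrays (SD, n = 5 each), a difference of −0.08 (SE 0.04) whose interval of −0.17 to 0.01 excludes the larger value of 201368_at. The probe sets of ZFP36L2 thus disagree in size. Parental arrays on 201368_at ran from 10.49 to 10.79 and overlapped the mock arrays.

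**Figure D1:**
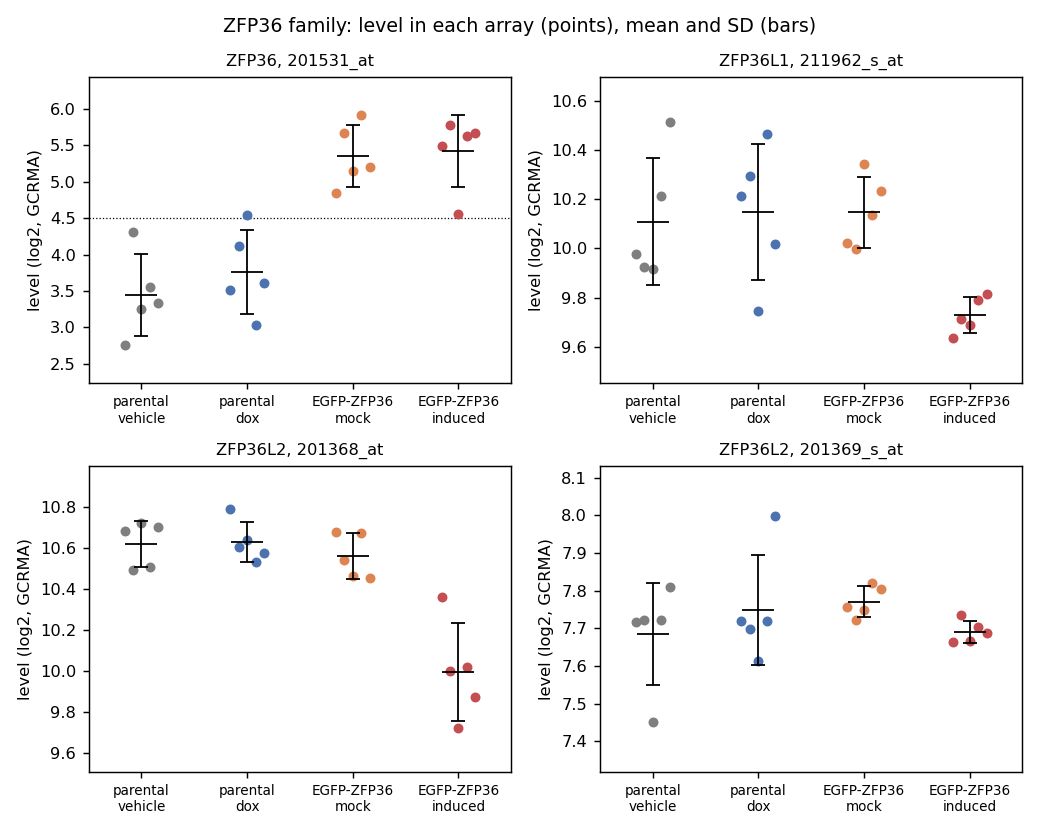
Level in each array (points, log2 GCRMA) of ZFP36, ZFP36L1 and the pair of measurable ZFP36L2 probe sets in the 4 groups, with the mean and SD of 5 arrays as bars; the dotted line marks 4.5, the filter level. ZFP36 overlaps between induced and mock arrays and is lower in both parental groups, while ZFP36L1 and 201368_at of ZFP36L2 have their lowest mean in induced arrays.

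Under the Benjamini-Hochberg threshold of 0.05, which 85.5% of all tested probe sets passed in this comparison, 18 of the 20 passed. The exceptions were ZFP36 and 201369_s_at of ZFP36L2. Induced arrays lay wholly below mock arrays for 11 of the 20 and wholly above for 6, where 35.4% and 41.5% of all tested probe sets did so. Separation of the kind seen for ZFP36L1 and ZFP36L2 was thus common in this comparison.

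The genes whose brightest probe set followed the family most closely over the 20 arrays are given as a description, since the groups themselves shape these correlations. For ZFP36 they were TENT5A (Pearson r = 0.934), HOXD4 (0.922) and BRF2 (0.917), which read higher in both EGFP-ZFP36 groups than in parental cells. For ZFP36L1 they were MAP3K2 (0.839), POM121C (0.819) and RBM12B (0.815). ZFP36L2 was followed by NKIRAS2 (0.945), RNF44 (0.942) and DOCK1 (0.940), each with its lowest mean in induced cells.

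MAPKAPK2 encodes MK2, the kinase that phosphorylates ZFP36 directly. Its brighter probe set, 201460_at, read 9.54, 9.50, 9.39, 9.66 and 9.38 in induced arrays. Mock arrays read 8.18, 8.26, 8.30, 8.18 and 8.0, more than 1 unit lower throughout. The rise was 1.31 (SE 0.07, 95% confidence interval 1.15 to 1.47, limma adjusted p = 5.83e-05 by Bonferroni, exact permutation p = 0.00794, the smallest that 5 against 5 arrays allow). Parental arrays read 8.61 to 9.07 with vehicle and 8.66 to 8.83 with doxycycline, between the groups of the EGFP-ZFP36 line. The order of group means was thus mock, both parental groups together, then induced. The weaker probe set, 201461_s_at, read 3.38 ± 0.19 in mock and 4.56 ± 0.23 in induced arrays, which did not pass by Bonferroni (limma adjusted p = 0.0256). Its mock arrays were all under 4.5, so no fold is given.

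YWHAZ encodes 14-3-3 zeta, a widely expressed and abundant isoform. On 200638_s_at, its brightest probe set, the induced arrays read 11.68, 11.58, 11.83, 11.68 and 11.56. Mock arrays read 13.68, 13.58, 13.67, 13.69 and 13.61. The gap between these groups was many times the spread within either. The level fell by 1.98 on the log2 scale (SE 0.06, 95% confidence interval −2.11 to −1.85, limma adjusted p = 6.98e-08 by Bonferroni). Parental vehicle arrays read 14.40, 14.26, 14.42, 13.88 and 14.22 and parental doxycycline arrays 14.17, 14.38, 14.37, 14.29 and 14.11. The mRNA was therefore highest in parental cells, intermediate in mock cells and lowest in induced cells, with no overlap between these 3 levels, and the parental groups overlapped each other.

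All 5 probe sets of YWHAZ fell. On 200639_s_at the level went from 13.22 ± 0.09 in mock to 11.71 ± 0.21 in induced arrays (limma adjusted p = 2.30e-04 by Bonferroni, and 0.304 with a separate spread for each group). It went from 12.70 ± 0.05 to 11.02 ± 0.12 on 200640_at and from 12.02 ± 0.12 to 9.66 ± 0.14 on 200641_s_at (adjusted p = 7.86e-07 and 3.23e-07). These are falls of 2.85-fold, 3.20-fold and 5.11-fold. The 95% confidence intervals of the smallest (−1.73 to −1.29) and the largest (−2.53 to −2.18) did not overlap, so the probe sets agree in direction and differ in size. The dimmest, 214848_at, went from 4.62 ± 0.10 to 2.78 ± 0.12, below the limit of measurement, and gives no fold.

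**Figure D2:**
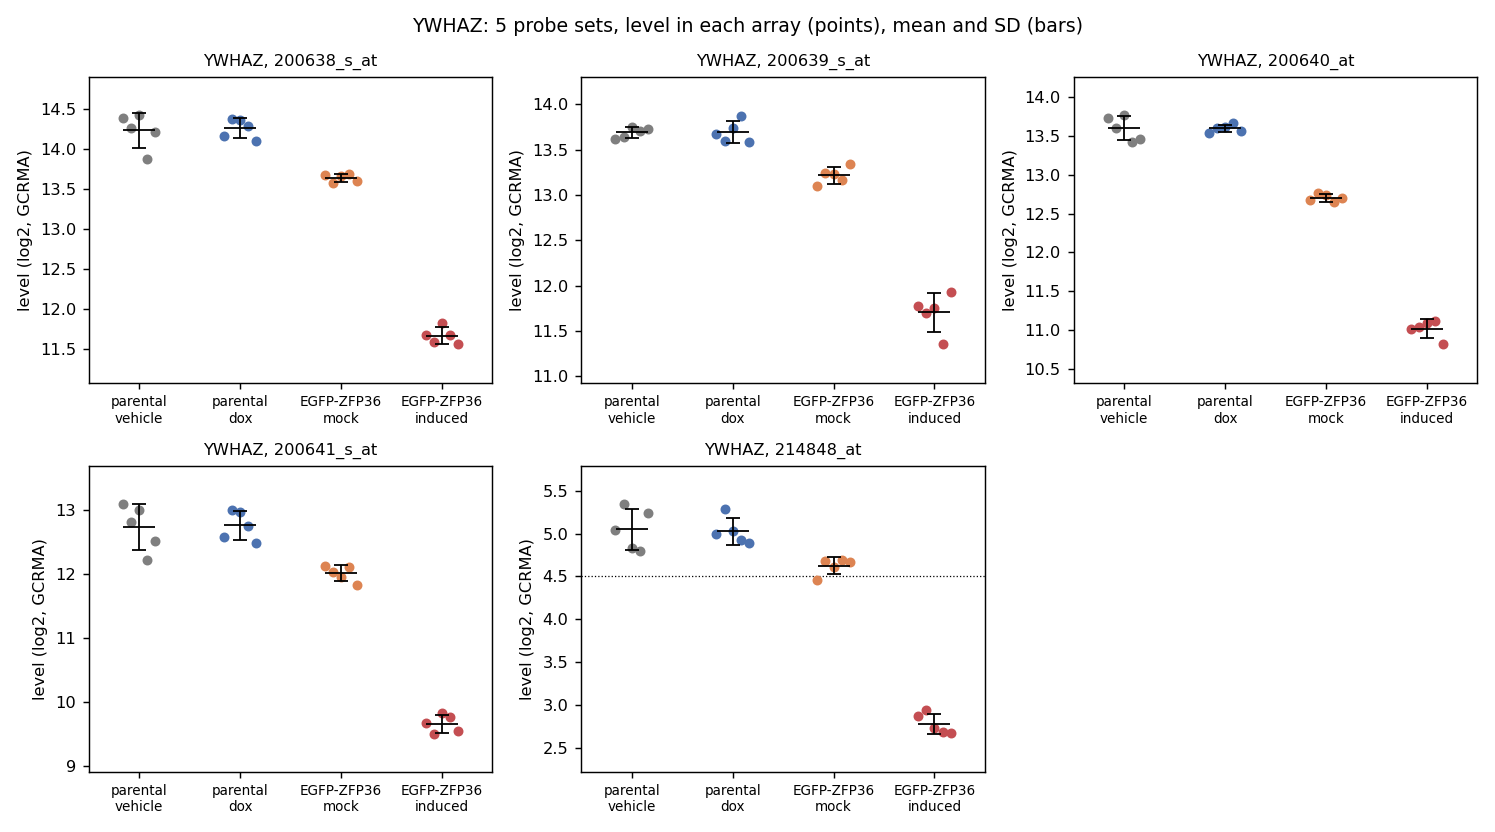
Level in each array (points, log2 GCRMA) on the 5 probe sets of YWHAZ in the 4 groups, with the mean and SD of 5 arrays as bars and the filter level of 4.5 as a dotted line. On every probe set the order is parental, mock, induced from high to low, and all induced arrays lie below all others.

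YWHAG encodes 14-3-3 gamma and carries the crosslinking site shown above. Its probe set, 222985_at, read 11.87, 11.79, 11.84, 11.74 and 11.58 in induced arrays. Mock arrays read 13.64, 13.64, 13.57, 13.65 and 13.62, with an SD of 0.03. The level fell by 1.86 on the log2 scale (SE 0.06, limma adjusted p = 1.53e-07 by Bonferroni, and 0.0172 with a separate spread for each group). Parental vehicle arrays lay between 13.90 and 13.95 and parental doxycycline arrays between 13.86 and 13.95. As for YWHAZ, parental levels were the highest and mock levels lay between, here by a smaller step.

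YWHAQ encodes 14-3-3 theta, an isoform first described in T cells. On 212426_s_at induced arrays read 13.45, 13.42, 13.60, 13.38 and 13.25 and mock arrays 14.20, 14.30, 14.26, 14.14 and 14.33. Every induced array was below every mock array. The level fell by 0.82 on the log2 scale (SE 0.07, limma adjusted p = 0.00326 by Bonferroni). This call is narrow, and leaving out any 1 array other than induced replicate 3 or 5 took the adjusted p to between 0.0107 and 0.0247. It was 0.0380 with no filter on low values and 0.177 with a separate spread for each group. The brightest probe set, 213699_s_at, differed by −0.39 (SE 0.05, adjusted p = 0.184), and 200693_at by −0.33 (SE 0.05, adjusted p = 0.349), both with induced arrays below all mock arrays.

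YWHAE encodes 14-3-3 epsilon, a highly conserved isoform. On 210317_s_at induced arrays read 10.90, 10.76, 10.73, 10.78 and 10.66 and mock arrays 10.11, 10.22, 10.14, 10.20 and 10.11. Every induced array was above every mock array. The rise was 0.61 (SE 0.05, limma adjusted p = 0.00644 by Bonferroni), a call that did not hold without any 1 array other than induced replicate 5 (adjusted p 0.0139 to 0.0464). It was 0.49 with arrays centred on the hybridization controls and 0.29 with arrays centred on the poly-A controls, both with an adjusted p of 1. The brighter probe set, 210996_s_at, read 13.42 ± 0.12 in induced and 13.08 ± 0.13 in mock arrays (SD, n = 5 each), with overlap between the groups and a difference of 0.34 (SE 0.08, adjusted p = 1). Parental vehicle arrays spanned 8.96 to 9.86 on 210317_s_at, below both groups of the EGFP-ZFP36 line.

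YWHAB encodes 14-3-3 beta. On 208743_s_at induced arrays read 14.99, 15.03, 14.92, 14.85 and 15.03 and mock arrays 14.38, 14.45, 14.40, 14.36 and 14.48. Induced arrays were again above all mock arrays, which were above all parental arrays (13.57 to 13.99). The difference of 0.55 (SE 0.05) narrowly missed the threshold (limma adjusted p = 0.0108 by Bonferroni). It was 0.68 on 217717_s_at and 0.36 on the brightest probe set, 217718_s_at (adjusted p = 0.0133 and 0.325). Centred on the poly-A controls, the differences of 217718_s_at and of 210996_s_at of YWHAE shrank to 0.035 and 0.023, so the size of the difference for these isoforms depends on the scale on which the arrays are compared.

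**Figure D3:**
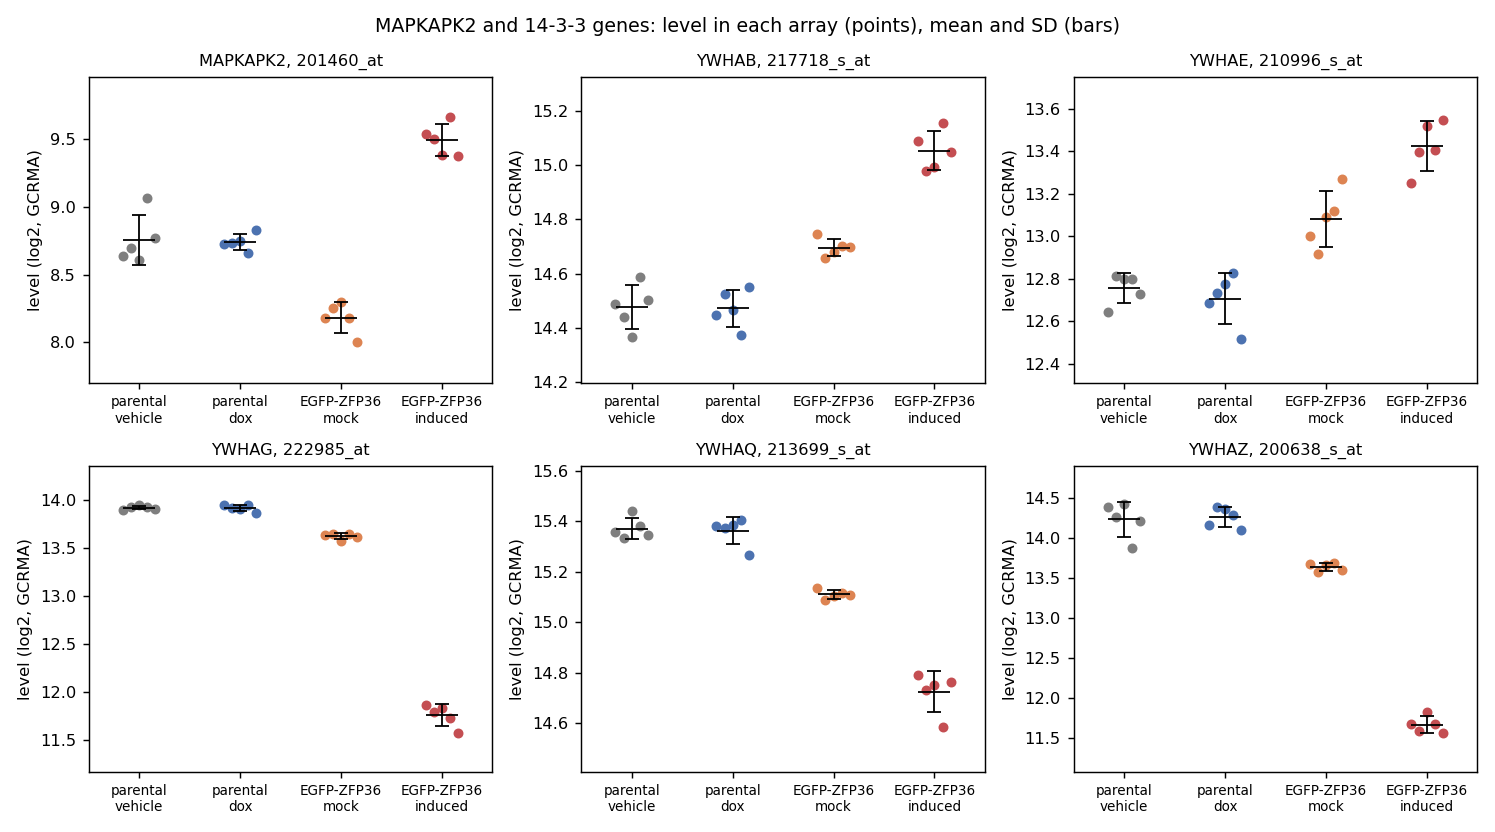
Level in each array (points, log2 GCRMA) on the brightest probe set of MAPKAPK2 and of the 5 examined 14-3-3 genes in the 4 groups, with the mean and SD of 5 arrays as bars; each panel has its own axis. MAPKAPK2, YWHAB and YWHAE are highest in induced arrays, whereas YWHAG, YWHAQ and YWHAZ are lowest there.

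A ratio of a pair of genes within an array does not change with the scaling of that array. Over the brightest probe sets of the 5 isoforms, all 10 pairs were compared between induced and mock arrays. For 8 of them the ratios did not overlap between the groups (exact permutation p = 0.00794 each, 0.00992 after Benjamini-Hochberg adjustment over the 10 pairs). The pairs share 5 genes, so they are not independent, and they were chosen after the values were seen. The share of such pairs among other genes was not computed, here or for the comparisons below. Of all single tested probe sets, 35.4% lay wholly lower in induced than in mock arrays and 41.5% wholly higher. YWHAZ fell 5.04-fold relative to YWHAB and 5.0-fold relative to YWHAE, and YWHAG fell 4.65-fold relative to YWHAB. YWHAQ fell 1.67-fold relative to YWHAB, and YWHAZ fell 3.01-fold relative to YWHAQ. The remaining pairs joined the genes that moved alike. The log2 ratio of YWHAZ to YWHAG differed by −0.12 (exact permutation p = 0.0714) and that of YWHAE to YWHAB by −0.012 (exact permutation p = 0.889). Zeta and gamma mRNA thus fell relative to beta and epsilon mRNA within the arrays themselves. In parental cells 0 of the 10 ratios separated doxycycline from vehicle arrays (largest difference −0.08, smallest exact permutation p = 0.381). Between mock and parental vehicle arrays, without induction, 6 of the 10 ratios did not overlap (exact permutation p = 0.00794 each, 0.0132 after Benjamini-Hochberg adjustment over the 10 pairs). There the log2 ratio differed by −0.81 for YWHAZ to YWHAB, −0.92 for YWHAZ to YWHAE and −0.62 for YWHAG to YWHAE, the same direction as after induction, and the mock arrays enter both comparisons.

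Doxycycline in parental cells tested whether the drug alone moves these mRNAs. None of the 20 probe sets passed in limma, at the Bonferroni threshold or at the Benjamini-Hochberg threshold, and 0 had an unadjusted p under 0.05; 0.00% of all tested probe sets were called, and 414 of them had an unadjusted p under 0.05. Differences ran from −0.05 to 0.32, the highest being that of ZFP36, whose parental levels are near background. For YWHAZ on 200638_s_at the difference was 0.027 with a 95% confidence interval of −0.21 to 0.26. For YWHAG it was −0.0049 (−0.092 to 0.082) and for MAPKAPK2 on 201460_at −0.015 (−0.20 to 0.17), all far from the differences seen after induction.

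**Figure D4:**
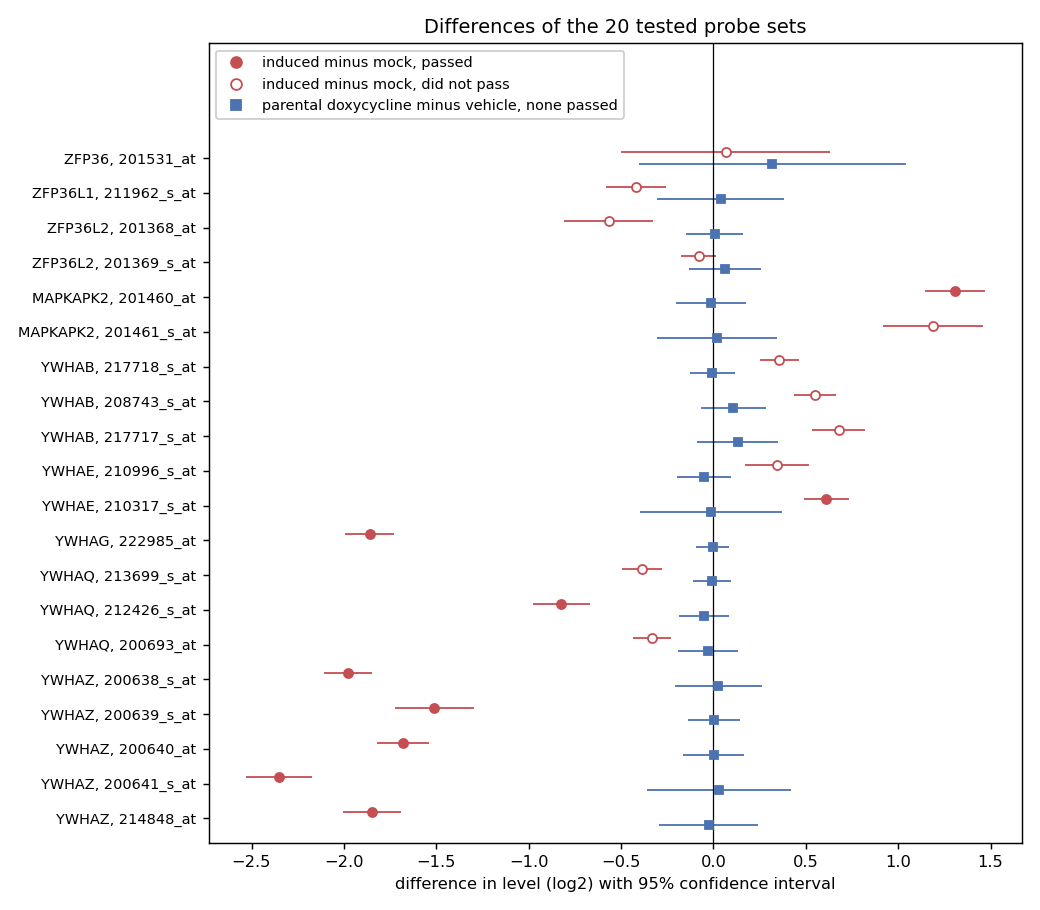
Difference in level (log2) with its 95% confidence interval for each of the 20 tested probe sets, induced minus mock (circles, filled where the Bonferroni threshold was passed) and parental doxycycline minus vehicle (squares). The circles run from −2.35 to 1.31, and the squares from −0.05 to 0.32 with intervals that include 0. For 201461_s_at of MAPKAPK2 and 214848_at of YWHAZ a group lay below 4.5, so their circles give no fold.

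The interaction tested whether doxycycline acted differently in the EGFP-ZFP36 line and in parental cells. Line and culture cannot be told apart in it either. It passed for 7 of the 20 probe sets in the lower direction and 1 in the higher, where 20.6% and 19.1% of all tested probe sets did so. The 7 were the probe set of YWHAG, 212426_s_at of YWHAQ and all 5 of YWHAZ, 214848_at included, and the remaining one was 201460_at of MAPKAPK2 (1.32, SE 0.11, limma adjusted p = 9.93e-06 by Bonferroni). Under the Benjamini-Hochberg threshold 18 of the 20 passed the interaction, beside 77.6% of all tested probe sets. Interaction values lay between −2.38 on 200641_s_at of YWHAZ and 1.32. For ZFP36L1 the interaction was −0.46 (SE 0.18) and for 201368_at of ZFP36L2 −0.57 (SE 0.13), and these did not pass (adjusted p = 1 each). Centred on the poly-A controls, 4 probe sets passed, all lower, and that of MAPKAPK2 did not (adjusted p = 1).

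Mock-induced cells of the EGFP-ZFP36 line were also compared with parental vehicle cells, which were passaged and grown differently. Line and culture cannot be told apart in this comparison. Here 1 of the 20 probe sets passed, 200640_at of YWHAZ, which was lower by 0.89 on the log2 scale (12.70 ± 0.05 in mock against 13.59 ± 0.15 in parental vehicle arrays, difference −0.89, limma adjusted p = 0.00362 by Bonferroni). This was the only call in the lower direction, where 6.88% of all tested probe sets passed, and there was none in the higher direction, where 10.2% did. The call did not hold without any 1 mock array, without parental vehicle replicate 1 or 2, or with arrays centred on either set of controls. Under the Benjamini-Hochberg threshold 16 of the 20 passed, 10 lower and 6 higher, beside 70.7% of all tested probe sets. The 6 include ZFP36, which was tested only because of its levels in the EGFP-ZFP36 line. The other YWHAZ probe sets were lower by 0.43 to 0.72 and MAPKAPK2 on 201460_at by 0.57, whereas the 3 probe sets of YWHAB and the pair of YWHAE were higher by 0.22 to 0.63. Because mock arrays enter this comparison and the one with induced arrays, the values of both comparisons are not independent.

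Other genes of the circuit were taken from lists of the p38-MK2 cascade and of further 14-3-3 and PP2A genes, each gene by its brightest probe set. Of 22 cascade genes, 19 were tested after induction. Among these 2 rose, 3 fell and 14 did not pass, where 26.5% of all tested genes rose and 21.5% fell. MAP2K4, a kinase upstream of JNK and p38, fell 4.29-fold from 10.30 ± 0.07 to 8.20 ± 0.15 (SD, n = 5 each). MAPKAPK5, a kinase related to MK2, fell 2.50-fold from 9.93 ± 0.17 to 8.61 ± 0.07. MKNK1, a kinase of the translation factor eIF4E, rose 1.90-fold from 8.61 ± 0.09 to 9.53 ± 0.06 (limma adjusted p = 4.62e-07, 1.12e-04 and 1.36e-04 by Bonferroni for the 3 genes). The median difference of the 19 was 0.29, beside 0.20 over all tested genes.

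Of the 13 other 14-3-3 and PP2A genes, all tested, 1 rose, 3 fell and 9 did not pass, with a median difference of 0.22. PPP2CB, which encodes the beta form of the PP2A catalytic subunit, fell 5.95-fold from 13.64 ± 0.11 to 11.07 ± 0.11. PPP2R1B, a PP2A scaffold subunit, fell 1.98-fold from 9.72 ± 0.09 to 8.73 ± 0.15, and PPP2R5E, a regulatory B56 subunit, fell 1.60-fold from 11.51 ± 0.07 to 10.83 ± 0.07 (limma adjusted p = 3.25e-08, 0.00180 and 0.00232 by Bonferroni). The gene that rose was PPP2R2D, a regulatory B55 subunit, by 2.01-fold (adjusted p = 0.00903). The alpha catalytic gene PPP2CA differed by −0.29 and YWHAH, which encodes 14-3-3 eta, by −0.39, and neither passed (adjusted p = 0.899 and 0.0409).

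The poly-A controls and the actin signal, which report on labelling and RNA quality, differed between induced and mock arrays. Poly-A control transcripts averaged 8.06 ± 0.21 in induced and 7.74 ± 0.16 in mock arrays (exact permutation p = 0.0238), while hybridization controls overlapped at 12.19 ± 0.10 and 12.07 ± 0.12 (exact permutation p = 0.143). The poly-A means of parental doxycycline and vehicle arrays were 8.02 ± 0.23 and 7.70 ± 0.56 (exact permutation p = 0.302). For actin, the 3′ probe set exceeded the 5′ one by 1.31 ± 0.13 in induced and 1.52 ± 0.14 in mock arrays (exact permutation p = 0.0476). The percentage of values at the floor was 36.9 in induced, 37.5 in mock and 35.9 in parental vehicle arrays. Mock differed in it from induced and from parental vehicle arrays (exact permutation p = 0.00794 each). The part of these shifts in the differences above was not tested beyond the centring given here. Centring on the poly-A controls moved the median difference of all tested probe sets from 0.12 to −0.20 and the calls from 4072 lower and 4126 higher to 5596 lower and 2547 higher. The calls among the 20 went from 7 lower and 2 higher to 7 lower and 1 higher, the lost one being that of YWHAE. The same centring changed all interaction calls from 3842 lower and 3560 higher to 2251 and 963, hybridization controls changed them to 3492 and 1342, and the calls between mock and parental vehicle cells went from 1283 and 1902 to 509 and 1299 on the poly-A scale. The falls of YWHAZ and YWHAG and the rise of MAPKAPK2 kept their direction and passed as deposited and with either centring for induced against mock cells. Other settings lost some of these calls. With a separate spread for each group, YWHAG and 200639_s_at of YWHAZ did not pass (Bonferroni-adjusted p = 0.0172 and 0.304). MAPKAPK2 did not pass with the replicate number as a block.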

How the data were processed

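The authors applied GCRMA to the scans, in a version that no source used here names, and deposited log2 values of 50441 probe sets, 1 column for each of 20 arrays. Depth has no counterpart on arrays; the number of arrays limits the precision. Labels gave each array's group and replicate. Names came from the annotation of the platform (38070 probe sets name 1 gene, 1423 several), and 38018 of the former matched the RefSeq gene table. Comparisons were run in R 4.3.3 with lmFit and eBayes of limma 3.58.1 on all 18639 probe sets whose mean exceeded 4.5 in any group: induced against mock, parental doxycycline against vehicle, mock against parental vehicle, and the interaction over 20 arrays. A call is a Bonferroni-adjusted p under 0.01; SE and intervals are those of limma. Two-sided exact permutation tests of 5 against 5 arrays stand beside single values. The fit was tested on simulated data. No pair of arrays shared over 1.57% of values above 5. Named are all members, 3 genes of each pathway list with the smallest p, and 3 genes most correlated with each ZFP36 family gene; PPP2R2D, PPP2CA and YWHAH were added after their values were seen, as were the 14-3-3 ratios. Members and lists were chosen with earlier results of these data known. Alternatives changed the threshold, filter, probe sets, blocking, variance, centring and arrays used. Figures were drawn with matplotlib 3.10.9.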

Additional observations from a re-analysis of the deposited data

Results flagged for a closer look

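In 6 of 80 groups of 5 arrays, 1 array stood apart from the others by more than 0.71 of the group's range, a gap that chance gives in about 1 group in 20. ZFP36 read 4.56 in induced replicate 3, below the next array at 5.48. ZFP36L2 on 201369_s_at read 8.0 in parental doxycycline replicate 5 (nearest array 7.72) and 7.45 in parental vehicle replicate 3 (nearest 7.72). MAPKAPK2 on 201461_s_at read 3.32 in parental vehicle replicate 4 (nearest 3.64), near background. YWHAQ on 213699_s_at read 14.59 in induced replicate 4 (nearest 14.73) and 15.27 in parental doxycycline replicate 5 (nearest 15.37).

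The effect of doxycycline differed between the EGFP-ZFP36 line and parental cells by the interaction test of limma (Bonferroni adjusted p under 0.01) for 8 of the 20 probe sets. Of all 18639 tested probe sets 39.7% passed the same test, so the count among the members is near that share. The difference between the lines was 1.32 for MAPKAPK2 on 201460_at, −1.86 for YWHAG and −0.77 for YWHAQ on 212426_s_at. For YWHAZ it was −2.00 on 200638_s_at, −1.51 on 200639_s_at, −1.68 on 200640_at, −2.38 on 200641_s_at and −1.82 on 214848_at. The induced arrays of 214848_at were under 4.5, so the last value is a difference of deposited values and gives no fold.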

How the results depend on the processing

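Of the 20 tested probe sets, those that passed after induction (9, of which 7 lower and 2 higher) became 18 (11 lower, 7 higher) with the Benjamini-Hochberg threshold, 7 (6, 1) with no filter on low values, 3 (2, 1) of 9 with 1 probe set per gene, where 51.9% of all passed, 4 (3, 1) without probe sets marked _s_at or _x_at, 5 (4, 1) with a separate spread per group, 12 (8, 4) with all 20 arrays in one model, and 8 (7, 1) when centred on hybridization controls or on poly-A controls. Leaving out 1 array gave 7 to 10 calls, 6 or 7 lower and 1 to 3 higher, beside 36.5% to 39.6% of all. For mock against parental vehicle cells there was 1 call, beside 17.1% of all. It became 16 with Benjamini-Hochberg (beside 70.7%) and 3 with all arrays in 1 model (beside 28.7%). There was none with 1 probe set per gene (beside 24.0%) or a separate spread (beside 6.10%). Without 1 array it was 0 to 1, beside 12.1% to 16.0%. With no filter the 1 call, of 25 probe sets, was YWHAG, beside 5.42% of all. With either centring the 1 call was ZFP36 (adjusted p = 0.00489 on hybridization controls), beside 13.1% of all on hybridization controls and 9.70% on poly-A controls. ZFP36 was tested only because of its levels in the EGFP-ZFP36 line. Interaction calls numbered 8, beside 39.7% of all, and 18 with Benjamini-Hochberg, beside 77.6%. They were 3 of 9 with 1 probe set per gene (beside 47.9%) and 4 of 7 without _s_at or _x_at (beside 41.6%). Centred on poly-A controls they were 4 (beside 17.2%), and with a separate spread 5 (beside 25.1%). Parental doxycycline gave 0 calls throughout.

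Taking the replicate number as a block left 5 calls after induction (5 lower, 0 higher), beside 23.3% of all tested probe sets. It left 0 between mock and parental vehicle cells (beside 4.94%) and 7 for the interaction (beside 29.0%). MAPKAPK2 on 201460_at then narrowly missed the threshold, with an adjusted p of 0.01002, and YWHAZ on 200639_s_at missed it with 0.0111. The calls of YWHAE and YWHAQ were also lost (0.267 for YWHAQ on 212426_s_at). Per the methods, parental cells were treated and left untreated in pairs on each of 5 days, but no source used here says that a replicate number marks a day. The numbers were not shown to pair the arrays: deviations of same-numbered induced and mock arrays correlated at 0.01 to 0.21, and 1 of 5 arrays correlated best with its own number.

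Differences that changed sign all lay near 0, and none of these had passed. For ZFP36, induced minus mock was −0.051 centred on hybridization controls, −0.26 on poly-A controls and −0.061 to 0.28 without 1 array. For ZFP36L1, mock minus parental vehicle was −0.052 on hybridization controls and −0.010 to 0.14 without 1 array. Doxycycline minus vehicle in parental cells became 0.065 for MAPKAPK2, 0.075 for YWHAB, 0.030 for YWHAE, 0.075 for YWHAG and 0.072 for YWHAQ on hybridization controls, and −0.28 for ZFP36L1, −0.31 for ZFP36L2 and −0.29 for YWHAZ on poly-A controls. Without 1 array it ran from −0.040 to 0.14 for ZFP36L1, −0.032 to 0.033 for ZFP36L2, −0.051 to 0.063 for MAPKAPK2, −0.033 to 0.023 for YWHAB, −0.013 to 0.0082 for YWHAG, −0.019 to 0.016 for YWHAQ and −0.063 to 0.074 for YWHAZ. The log2 ratio of YWHAE to YWHAB, chosen with the other ratios after seeing the data, ran from −0.050 to 0.040 without 1 array. Centring moves every difference of a comparison by the same amount, set by the mean control levels of its groups. What lies behind the control levels, and behind the changes without 1 array, was not tested. Levels under 4.5, the filter of the study, were taken here as below the limit of measurement, although values are deposited for them. This limits ZFP36 in parental cells, 201461_s_at of MAPKAPK2 and 214848_at of YWHAZ.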
